A study of Homo sapiens with 6 samples.

Results

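The genes described here are named for proteins of the mitochondrial ribosome. They were taken as every protein-coding gene whose symbol is MRPL or MRPS followed by a number and at most 1 of the letters A, B or C. Of the 33706 genes measured, 78 met the rule, and each had a symbol of its own. RNA was sequenced from the human ovarian cancer line ES2 after 7 days of treatment, with 1 library in each of 6 groups labelled Control, T, G, R, TR and GR. T-oligos, on which the study centres, are short DNAs that copy the sequence of the telomere end, and RHPS4 is a small molecule that binds G-quadruplexes. T and R are not spelled out in the labels and G is tied to G4, so the letters are kept, and TR and GR are read as combinations. Doses and a vehicle for the control are not stated in the labels.

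The mitochondrial ribosome translates the few mRNAs of mitochondrial DNA, which encode core subunits of the respiratory chain and of ATP synthase. Its rRNAs come from mitochondrial DNA as well, while its proteins are all encoded in the nucleus, made in the cytosol and imported. Some of these proteins descend from bacterial ribosomal proteins and others are found only in mitochondria. By their systematic names, 51 of the 78 belong to the large subunit and 26 to the small subunit. MRPS36 is now known as a part of the 2-oxoglutarate dehydrogenase complex and was counted with neither. By the systematic names, 27 of the subunit proteins have counterparts in bacteria and in the cytosolic ribosome, and 19 have counterparts in bacteria. The other 31 are classed as of mitochondria only. That class follows the names, so paralogs of a protein with a bacterial counterpart, such as MRPS18A and MRPS18B, can fall in it.

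The libraries held between 73213048 and 83976498 counts. All titles name ES2, yet SKOV3, another ovarian cancer line, stands in the source names of 4 libraries (G, R, TR and GR). ERBB2, amplified in SKOV3, had an FPKM (fragments per kilobase of transcript, scaled to depth) between 0.146 and 0.721, and CDKN2A, deleted in SKOV3, between 74.4 and 146. No library therefore showed the SKOV3 pattern at these 2 genes. The label calls the cells epithelial: KRT18 lay between 62.9 and 249 FPKM, KRT8 between 15.2 and 38.9, EPCAM was at most 0.0563 and CDH1 at most 0.0211, while mesenchymal VIM lay between 929 and 1919. The leukocyte gene PTPRC was at most 0.00665 and endothelial PECAM1 at most 0.113, but CD68 lay between 19.0 and 63.5. Transcripts of mitochondrial DNA made up 6.98% of the counts in Control, 6.17% in G and 5.44% in T, and 0.351% in R, 0.474% in TR and 0.893% in GR.

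Promoter sequences bear on what the 78 genes share in position and letters. RefSeq (GRCh38.p14) gave 85 windows for 69 of the genes, each running from 250 bases before to 50 bases after an annotated start. The 6 windows below belong to genes on which the results turn. MRPL53 was the gene called for R, MRPL36 and MRPL52 had the next highest fold changes for R, MRPS31 had the lowest, MRPS18A was low in the R library, and MRPL46 starts close to MRPS11, another of the 78, on the other strand. They lie at chr2:74472631-74472930 (MRPL53), chr5:1799788-1800087 (MRPL36), chr13:40771141-40771440 (MRPS31), chr6:43687742-43688041 (MRPS18A) and chr15:88467339-88467638 (MRPL46), on the minus strand, and at chr14:22829637-22829936 (MRPL52) on the plus strand. Capitals mark, on either strand, the ETS-factor letters CCGGAAG, the YY1 letters AAGATGGC and the NRF1 core GCGCATGC.
MRPL53: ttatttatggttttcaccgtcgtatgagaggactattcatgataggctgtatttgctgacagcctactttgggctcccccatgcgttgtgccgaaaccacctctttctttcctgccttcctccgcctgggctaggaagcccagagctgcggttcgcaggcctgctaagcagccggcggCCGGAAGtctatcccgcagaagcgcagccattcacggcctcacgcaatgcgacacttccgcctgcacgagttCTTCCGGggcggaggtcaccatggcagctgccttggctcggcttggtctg
MRPL36: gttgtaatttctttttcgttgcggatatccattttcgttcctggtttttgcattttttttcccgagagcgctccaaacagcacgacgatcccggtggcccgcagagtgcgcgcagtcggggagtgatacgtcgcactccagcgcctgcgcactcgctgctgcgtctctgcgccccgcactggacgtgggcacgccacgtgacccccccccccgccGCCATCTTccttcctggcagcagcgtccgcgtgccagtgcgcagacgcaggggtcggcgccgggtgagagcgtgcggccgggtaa
MRPL52: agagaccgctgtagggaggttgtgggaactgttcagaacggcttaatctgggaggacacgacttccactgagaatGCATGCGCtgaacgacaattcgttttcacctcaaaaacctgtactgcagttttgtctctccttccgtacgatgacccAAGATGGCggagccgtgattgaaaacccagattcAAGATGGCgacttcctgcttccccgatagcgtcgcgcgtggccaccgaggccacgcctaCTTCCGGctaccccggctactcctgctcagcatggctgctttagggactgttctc
MRPS31: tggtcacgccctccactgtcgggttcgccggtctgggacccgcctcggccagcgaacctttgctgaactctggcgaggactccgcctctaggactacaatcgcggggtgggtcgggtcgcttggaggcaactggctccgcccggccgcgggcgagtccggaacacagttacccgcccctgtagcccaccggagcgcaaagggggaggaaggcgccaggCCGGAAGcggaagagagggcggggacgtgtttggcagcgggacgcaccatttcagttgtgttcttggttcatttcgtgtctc
MRPS18A: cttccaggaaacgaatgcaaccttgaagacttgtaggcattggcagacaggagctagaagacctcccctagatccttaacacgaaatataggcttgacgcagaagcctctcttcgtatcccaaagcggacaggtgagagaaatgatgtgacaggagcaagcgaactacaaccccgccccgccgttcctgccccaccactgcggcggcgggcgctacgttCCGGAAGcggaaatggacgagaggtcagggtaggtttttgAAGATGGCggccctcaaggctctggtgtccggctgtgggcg
MRPL46: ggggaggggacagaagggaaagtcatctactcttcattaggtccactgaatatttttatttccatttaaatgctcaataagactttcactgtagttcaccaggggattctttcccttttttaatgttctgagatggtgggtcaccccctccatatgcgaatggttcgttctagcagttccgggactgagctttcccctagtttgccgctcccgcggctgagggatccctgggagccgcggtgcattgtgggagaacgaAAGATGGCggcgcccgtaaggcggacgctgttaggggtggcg

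ETS factors such as GABPA, together with NRF1 and YY1, are known regulators of nuclear genes for mitochondrial proteins. The ETS letters were in 33 of the 85 windows (38.8%), against 10.3% of the 35116 windows of all genes. The YY1 letters were in 23 windows (27.1%), against 2.89% of all. Of the 24 YY1 matches, 16 began 6 to 35 bases after the annotated start and read in the direction of the gene. The YY1 letters contain ATG, the usual start codon. The NRF1 core was in 6 windows (7.06% against 3.05%) and the full NRF1 palindrome, which contains that core, in 1 (1.18% against 1.24%). The TATA box letters TATAAA were in 3 (3.53% against 11.5%). The ETS and YY1 letters share AAG and can overlap, which occurred in 0 of the 85 windows, while 10 windows held both. Windows of the same gene can overlap, as for MRPL47, MRPS12 and MRPS22, so some matches are counted more than once. The median GC content of the windows was 60.3% against 58.7% for all, and a match is a description of the letters, not a site of binding.

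All 78 genes were expressed, with an FPKM of 1 or more in some library, and 72 reached 5. Their mean FPKM over the 6 libraries had a median of 15.6 and spanned 57.4-fold. The highest was MRPS34 (mS34, a small subunit protein of mitochondria only), with 92.5 in Control, 61.3 in T, 64.7 in G, 118 in R, 137 in TR and 100.3 in GR. MRPL12 (bL12m), which forms the flexible stalk that recruits translation factors, had 109, 83.0, 75.2, 93.1, 110.5 and 86.4 in the same order. MRPS18B, MRPL41 and MRPL37 followed with means of 65.7, 60.1 and 55.6 FPKM, and the ranges of these 3 genes over the libraries overlapped. The lowest was MRPS18C (bS18m), with 1.80, 2.12, 1.86, 0.942, 1.22 and 2.05 FPKM. MRPL46, MRPS25, MRPL22 and MRPS22 had means between 2.15 and 3.72 FPKM. The median of the mean FPKM was 16.0 for the large subunit and 10.00 for the small subunit.

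The family of 3 MRPS18 paralogs spanned most of this range. In bacteria 1 protein, S18, takes the place that MRPS18C has in the small subunit, while MRPS18B (mS40) sits elsewhere in the small subunit and MRPS18A (mL66) in the large subunit. Mean levels were 65.7 FPKM for MRPS18B, 16.4 for MRPS18A and 1.67 for MRPS18C, and the ranges of the 3 genes did not overlap. Each was lowest in the R library, at 48.9, 7.94 and 0.942 FPKM.

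**Figure D1:**
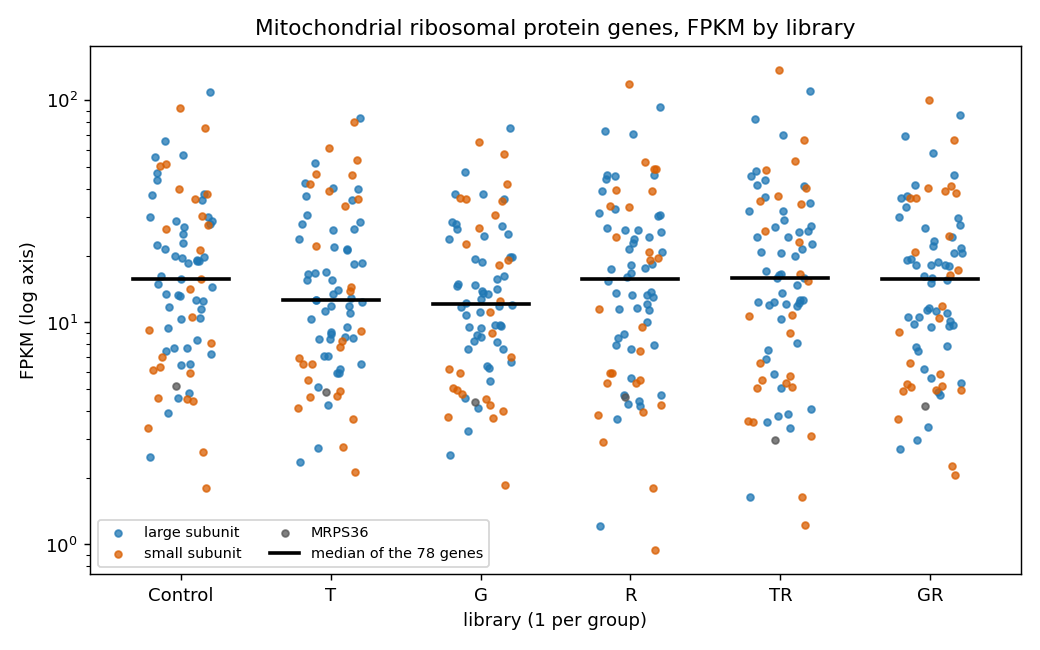
FPKM on a log axis of the 78 mitochondrial ribosomal protein genes in each library, with 1 point per gene, colours for the subunit and a bar for the median. The medians were 15.7 in Control, R and GR, 15.9 in TR, 12.7 in T and 12.1 in G.

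The 78 genes together took 0.422% of all counts in Control (95% Wilson interval 0.420 to 0.423), 0.379% in T (0.377 to 0.380), 0.341% in G (0.340 to 0.342), 0.410% in R (0.409 to 0.412), 0.422% in TR (0.421 to 0.424) and 0.386% in GR (0.384 to 0.387). The share was lowest in G, next lowest in T, and highest in Control and TR. This order holds for shares of all counts, which include the transcripts of mitochondrial DNA. Those made up 5.44% to 6.98% of the counts without R and 0.351% to 0.893% with R. Shares of the remaining counts are not given here, and the order may differ there. Of the 78 genes 23 were lowest in G and 22 in T, while 21 were highest in TR and 3 in G. These counts were not taken over all genes, so they do not tell the family apart from the libraries as a whole. The highest library exceeded the lowest by a median of 1.75-fold over the 78 genes, against 1.93-fold over all genes whose FPKM was 1 or more in every library. It did so by more than 2-fold in 17 genes and by more than 3-fold in 1, MRPL53. In bulk RNA, fewer cells with a transcript and less of it per cell cannot be told apart.

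The response to R was measured in 3 pairs without a common library: without oligo (R against Control), with T (TR against T) and with G (GR against G). On the scale of log2 of FPKM + 1, which understates changes of low genes, the median ratio of the 78 genes was -0.079, 0.18 and 0.13, while that of all 13259 expressed genes was -0.13, -0.17 and -0.01. The sign in R against Control turned with the scaling, since it was 0.030 after rescaling of FPKM by the median ratio and 0.12 from TMM-scaled counts, and all 3 medians were then positive. The mean of the 3 medians was 0.08 ± 0.14 (SD over 3 pairs), or 0.18 ± 0.15 above that of all genes. Once the trend with GC content and length was removed it was -0.02, against -0.10 for all genes, or 0.08 ± 0.14 above them. Of the genes 25 were higher with R in all 3 pairs (32.1%, against 22.4% of all genes) and 16 lower in all 3 (20.5% against 34.9%), and 37 had mixed signs. At a 1.5-fold threshold, 1 gene was higher and 12 lower in R against Control, where 8.58% of all genes were higher and 20.1% lower. With the rescaled FPKM these were 6 and 8 genes, and with TMM-scaled counts 8 and 9. Over all genes the mean of the 3 medians moved as well, from -0.10 to -0.07 with the rescaled FPKM and 0.05 with TMM-scaled counts. The shares of all genes past 1.5-fold under these 2 scalings are not given here. With T, 21 were higher and 11 lower (14.9% and 28.1% of all), and with G, 9 were higher and 1 lower (7.26% and 9.6% of all). No gene passed 1.5-fold in all 3 pairs.

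An additive model of oligo (none, T or G) and R was then fitted to the counts with edgeR, whose quasi-likelihood test called 679 of 19447 genes for R (3.49%) at a Benjamini-Hochberg adjusted p under 0.05. Among the 78 mitochondrial ribosomal protein genes, 1 was called higher and 0 lower, against 1.59% and 1.9% of all genes, so the share called was near the background. Without adjustment, 24 were higher and 2 lower at p under 0.05, against 13.2% and 15.5% of all genes. The median log2 fold change was 0.28, against -0.05 over all genes, and 54 of the 78 were positive, against 9213 of all 19447. DESeq2, with 9.43% of all genes called higher and 9.8% lower, called 17 of the 78 higher and 1 lower. The large subunit had a median of 0.33 with 36 of 51 genes positive, and the small subunit 0.22 with 18 of 26. Nothing in the labels says whether the cultures were separate, so these p-values measure only the spread between the libraries about the model. That spread has 2 residual degrees of freedom per gene, and edgeR moderates it with the spread of all genes.

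The gene that passed the test was MRPL53 (mL53, a large subunit protein of mitochondria only), at chr2:74471982-74472687 in the deposited table. Its FPKM was 21.4 in Control and 32.5 in R, 16.8 in T and 36.9 in TR, and 4.57 in G and 9.83 in GR. It was higher with R in each background, and the groups with and without R overlapped, with G and GR the lowest of all 6. Its log2 fold change for R was 1.14 (SE 0.25, edgeR adjusted p = 0.0498). Leaving out any 1 of the 6 libraries ended this call, with adjusted p between 0.0754 and 0.281. With the transcripts of mitochondrial DNA left out of the scaling the adjusted p was 0.05003, and with no filter on low counts it was 0.208. The call also ended with the source-name line as a term, but the estimate for R then rests on GR against G alone. DESeq2 called MRPL53 higher with R (1.17, adjusted p = 0.00068). Reads of this gene may be shared with CCDC142, as described further on.

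The next 7 genes by fold change for R did not pass the adjusted test in edgeR. DESeq2 called each of them, with adjusted p between 0.00119 and 0.0226. MRPL36 (bL36m) had 12.6, 8.57 and 9.76 FPKM in Control, T and G, and 17.6, 20.02 and 18.2 in R, TR and GR. Its 3 libraries with R lay above the 3 without, and the edgeR log2 fold change was 1.07 (SE 0.26, adjusted p = 0.0558). MRPL52 (mL52) had 7.65, 5.90 and 6.38 FPKM without R and 11.6, 12.2 and 11.2 with R, again without overlap (1.01, SE 0.23, adjusted p = 0.0523). MRPL34 (bL34m), like MRPL36 a short protein of bacterial descent, had 14.5, 12.3 and 11.9 without R and 20.7, 22.6 and 20.5 with R. MRPL41 (mL41) had 55.9, 42.4 and 37.8 without R and 73.05, 82.8 and 68.95 with R. Both were free of overlap, at log2 fold changes of 0.92 (SE 0.23) and 0.94 (SE 0.24). MRPS34, the most abundant of the genes, also stood higher in every library with R (0.91, SE 0.25). MRPL43 (mL43) and MRPL2 (uL2m, near the catalytic centre) had 0.89 and 0.85, and in both the libraries with and without R overlapped. For MRPL2 the ratio was -0.01 in R against Control, 1.19 in TR against T and 0.67 in GR against G.

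At the other end, the lowest fold change for R belonged to MRPS31 (mS31, a small subunit protein of mitochondria only). Its FPKM was 8.07, 9.17 and 6.97 in Control, T and G, and 4.25, 3.08 and 4.96 in R, TR and GR, without overlap. The edgeR log2 fold change was -0.79 (SE 0.27, adjusted p = 0.103), and DESeq2 called it (-0.77, adjusted p = 0.0453). MRPL47 (uL29m), a protein at the mouth of the peptide exit tunnel, had 25.04, 25.999 and 18.7 FPKM without R and 13.3, 13.6 and 15.9 with R (-0.50, SE 0.23). MRPL30 (uL30m) and MRPL15 (uL15m) were also lower in all 3 libraries with R, at -0.43 and -0.42. MRPS17 (uS17m) and MRPL50 (mL50) had -0.46 and -0.38 and no overlap either. MRPS17 lies within the span of NIPSNAP2 on the same strand, and its counts of 542 to 1108 against 3633 to 8171 for NIPSNAP2 may be split by the counting. MRPS25 (mS25), which did not reach an FPKM of 5, had 2.62, 3.68 and 3.98 without R and 1.80, 1.64 and 2.26 with R (-0.64, SE 0.23, edgeR adjusted p = 0.112). MRPS9 (uS9m, whose tail in bacteria reaches the peptidyl-tRNA site) had 27.4, 35.9 and 19.1 without R and 19.5, 15.4 and 17.2 with R, where R and G overlapped.

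**Figure D2:**
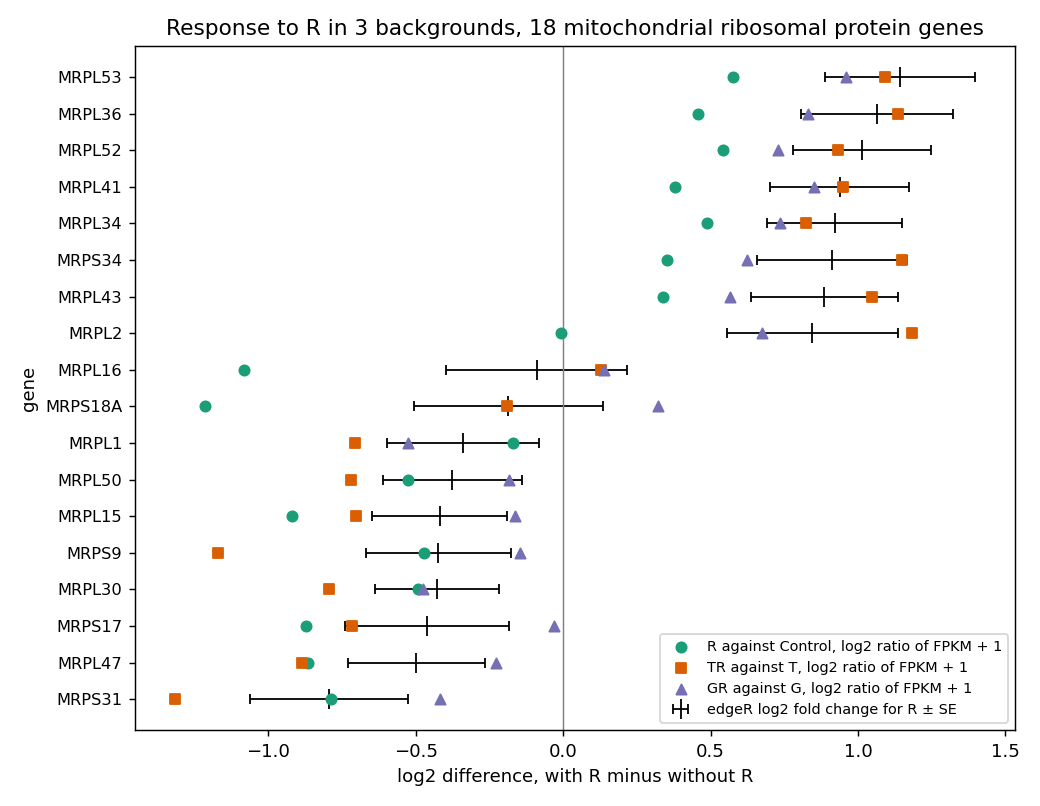
Log2 difference with R minus without R for the 8 highest and 8 lowest genes by edgeR fold change and for MRPS18A and MRPL16, as FPKM ratios in 3 pairs (symbols) and as the edgeR estimate with its SE (black). TR against T was farther from 0 than GR against G in all 16 of the extreme genes, which were picked by their fold change for R in these same libraries. TR against T was the wider pair over all genes too. In it 14.9% of all genes were at least 1.5-fold higher and 28.1% lower, against 7.26% and 9.6% in GR against G. MRPS18A and MRPL16 departed from 0 mainly in R against Control.

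Over all 78 genes, 15 had all 3 libraries with R above the 3 without (19.2%, against 13.5% of all genes) and 12 had them below (15.4% against 18.7%). Among the 15 were MRPL37 (mL37), MRPL51 (mL51), MRPL44 (mL44, which has the fold of a ribonuclease III) and MRPS5 (uS5m, near the mRNA entrance). MRPL44 went from 18.5, 13.99 and 13.4 FPKM without R to 26.2, 24.3 and 18.7 with R, with a log2 fold change of 0.79 (SE 0.23, edgeR adjusted p = 0.0765). MRPS5 differed less, from 4.54, 4.68 and 4.51 to 5.33, 5.32 and 4.98. The 12 included MRPL1 (uL1m, the stalk that helps release tRNA) and MRPL27 (bL27m, at the catalytic centre), with -0.34 and -0.27.

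Genes for functional centres of the ribosome had fold changes of both signs. Of the stalk and its base, MRPL10 (uL10m) had a log2 fold change for R of 0.50, MRPL11 (uL11m) 0.62 and MRPL12 0.33. Around the exit tunnel, MRPL23 (uL23m) had 0.80 and MRPL24 (uL24m) 0.38, while MRPL47 had -0.50 and MRPL45 (mL45), which ties the ribosome to the inner membrane, had 0.08. MRPS12 (uS12m, at the decoding centre) had 0.58, MRPS2 (uS2m) 0.29 and MRPS27 (mS27, a pentatricopeptide repeat protein) 0.07. MRPL58 (mL62), a hydrolase that frees peptides from stalled ribosomes, had -0.15, and MRPS36 had -0.11. None of these passed the edgeR test.

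A pair of large subunit genes stood apart in the R library. MRPS18A had 19.8, 18.3 and 16.2 FPKM in Control, T and G, 15.9 in TR and 20.4 in GR, but 7.94 in R. MRPL16 (uL16m, one of the last proteins to join the large subunit in bacteria) had 19.97 in Control, 11.2 in T and 14.7 in G, 8.89 in R, 12.4 in TR and 16.3 in GR. In R against Control their log2 ratios were -1.22 and -1.08, the only ones of the 78 genes past 2-fold in that pair. In TR against T they were -0.19 and 0.13, and in GR against G 0.32 and 0.14. The level in R rests on 1 library, and across backgrounds the edgeR log2 fold changes were -0.19 (SE 0.32) and -0.09 (SE 0.31).

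The fold change for R went with the base composition of the transcripts. Across the 78 genes, which share libraries and depth, Spearman's rho between the edgeR log2 fold change and the mean GC content of the transcripts in GENCODE v29 was 0.59, against 0.29 across 18735 genes. With transcript length it was -0.29, against -0.19 across all. In the 26 genes lowest in GC (35.0% to 44.9%) the median log2 fold change was -0.01 with 13 positive. In the middle 26 it was 0.15 with 16 positive, and in the highest 26 (53.8% to 71.9%) 0.56 with 25 positive. With the trend over all genes entered as an offset, the medians of the 3 groups were 0.18, 0.15 and 0.17, and rho was 0.00. With it 0 of the 78 genes were called for R. The share of all genes called with the offset is not given here, so this count does not tell the family apart. The median over the 78 was then 0.17 against -0.05 over all genes.

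**Figure D3:**
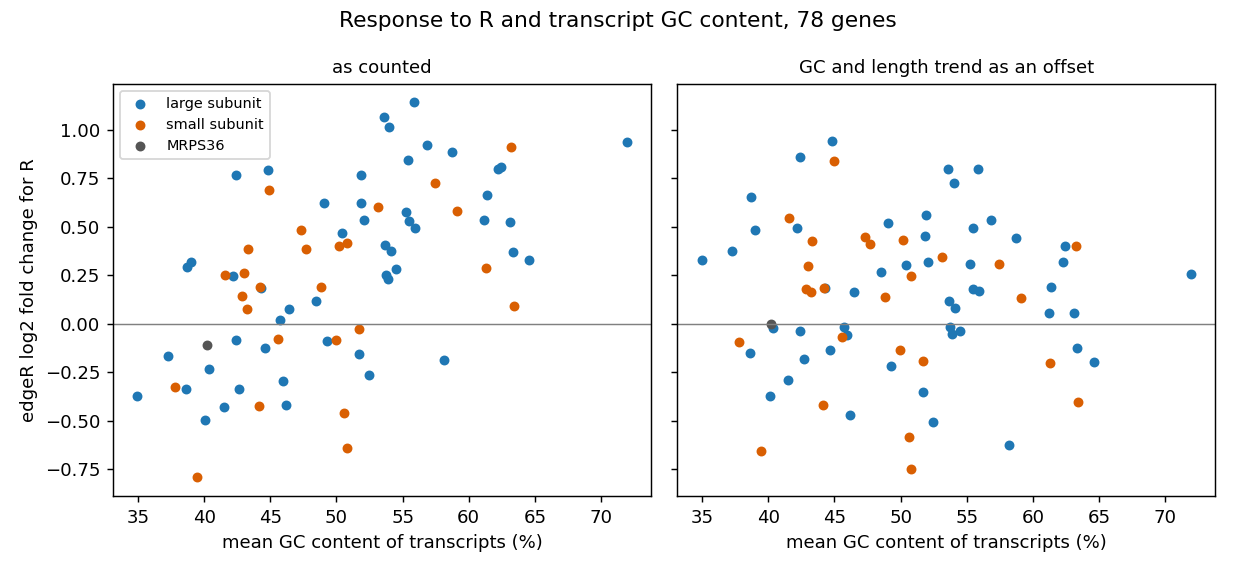
Log2 fold change for R from edgeR against mean transcript GC content in percent, for the 78 genes as counted (left) and with the GC and length trend of all genes as an offset (right). The upward slope on the left, with rho of 0.59, was gone on the right, with rho of 0.00.

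With that offset the order of the extremes changed in part. MRPL36 had 0.80, MRPL53 0.80 and MRPL52 0.73, while MRPL41, the gene with the highest GC content of all 78 at 71.9%, went from 0.94 to 0.26. MRPL50, the gene with the lowest GC content at 35.0%, went from -0.38 to 0.33. MRPS31 remained negative at -0.66. The adjusted p of MRPL36, MRPL52 and MRPL53 in edgeR lay between 0.0686 and 0.0735.

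G was measured in 2 pairs that share no library, G against Control and GR against R. The median log2 ratio of the 78 genes was -0.27 and -0.04, against 0.08 and 0.22 for all genes, so the family lay 0.31 ± 0.07 (SD over 2 pairs) below the median gene. The mean of the 2 medians was -0.16 ± 0.16 (SD, n = 2 pairs), and it was negative under each scaling run, from -0.44 with TMM-scaled counts to -0.038 with the GC and length trend removed. At 1.5-fold, 0 were higher and 6 lower in G against Control, where 12.5% of all genes were higher and 3.76% lower. GR against R had 5 higher and 2 lower (22.3% and 4.17% of all). That balance turned with the scaling, to 3 higher and 10 lower after rescaling of FPKM by the median ratio and 3 and 20 from TMM-scaled counts. Over all genes the mean of the 2 medians moved as well, from 0.15 to 0.06 after rescaling and -0.06 from TMM-scaled counts. The shares of all genes past 1.5-fold under these 2 scalings are not given here. For GR against R the median of the 78 genes was 0.12 with the GC and length trend removed. Of the 78 genes 42 were lower in both pairs and 7 higher in both, against 18.8% and 44.6% of all genes. In edgeR 74 of the 78 log2 fold changes for G were negative, with a median of -0.45 against 0.07 over all genes. The quasi-likelihood test called 0 of the 78, against 0.0309% of all genes (0.0206% higher and 0.0103% lower). Without adjustment 0 were higher and 15 lower at p under 0.05, against 7.57% and 4.55% of all genes, and DESeq2 called 1 of the 78 lower, MRPL53, against 1.66% of all genes called higher and 0.504% lower. Spearman's rho between the fold change for G and GC content was -0.32 across the 78 genes and -0.06 across all, and with the GC and length offset the median over the 78 was -0.31.

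Both libraries with G lay below the 4 without in 8 of the 78 (10.3%, against 4.36% of all genes) and above them in 1, MRPL46 (1.28% against 12%). MRPL24 had 27.8 FPKM in G and 33.0 in GR, and between 37.2 and 48.2 in the other libraries. Its log2 fold change for G was -0.87 (SE 0.28, edgeR adjusted p = 0.347). MRPL10 had 19.7 in G and 27.3 in GR, and 27.8 to 34.4 elsewhere, so GR lay just under Control. MRPS27 had 4.77 in G and 5.14 in GR, and 5.51 to 6.97 elsewhere. MRPL54 (mL54), MRPL43, MRPL11, MRPL23, MRPL9 (bL9m) and MRPL33 (bL33m) had log2 fold changes for G between -0.85 and -0.80, and their G and GR libraries overlapped with T or with others.

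MRPL53 had the lowest fold change for G of all 78 genes, -2.26 (SE 0.32, edgeR adjusted p = 0.149). Its span lies almost wholly within CCDC142 (chr2:74471986-74483247), a coiled-coil gene on the same strand that was chosen for description after its values were seen. MRPL53 had 1264 counts in Control, 896 in T, 264 in G, 1978 in R, 2146 in TR and 603 in GR. CCDC142 had 543, 774, 1697, 544, 551 and 1943 in the same order. MRPL53 was thus low in the libraries in which CCDC142 was high. The sum of both was 22.3 CPM (counts scaled to the library total) in Control, 22.8 in T and 24.9 in G, and 30.3 in R, 33.8 in TR and 30.3 in GR. MRPL53 took 70.0% of that sum in Control (95% Wilson interval 67.8 to 72.0), 53.7% in T (51.3 to 56.0) and 13.5% in G (12.02 to 15.04). It took 78.4% in R (76.8 to 79.99), 79.6% in TR (78.01 to 81.05) and 23.7% in GR (22.1 to 25.4). For CCDC142 the log2 fold change was 1.48 for G (SE 0.31, edgeR adjusted p = 0.246; DESeq2 adjusted p = 0.00470) and 0.01 for R (SE 0.25). The assignment of reads in the overlap, not given in the sources used here, makes the level of MRPL53 uncertain, and the part of read assignment in its difference was not tested.

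**Figure D4:**
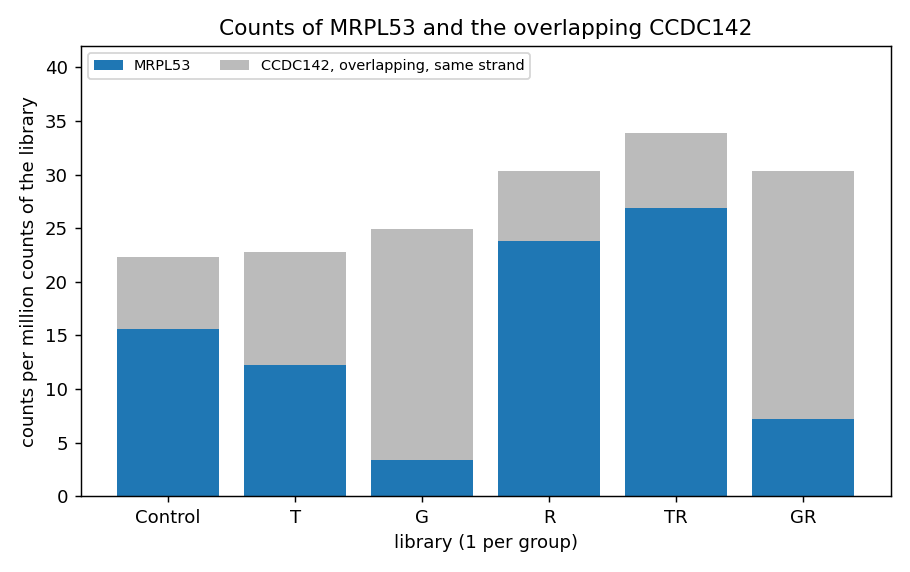
CPM of MRPL53 (blue) and of the overlapping CCDC142 (grey), stacked, in each library. The sum lay between 22.3 and 33.8, and the blue part was 13.5% of it in G and 23.7% in GR.

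T was measured in T against Control and TR against R. The median log2 ratio of the 78 genes was -0.22 in the former and 0.046 in the latter, against 0.07 and 0.06 for all genes. From TMM-scaled counts the latter was -0.012. In T against Control 2 genes were at least 1.5-fold higher and 11 lower (11.5% and 8.02% of all genes), and in TR against R 1 was higher and 0 lower (3.62% and 2.23% of all). In edgeR the median log2 fold change was -0.21 against 0.01, and 0 of the 78 were called, against 0.0154% of all genes called higher and 0 lower. At an unadjusted p under 0.05 there were 0 of the 78, against 2.64% of all genes higher and 0.992% lower, and DESeq2 called 0, against 0.103% higher and 0.0411% lower. The lowest was MRPL13 (uL13m), with 9.44 FPKM in Control and 5.14 in T, but 8.50 in R and 7.49 in TR (-0.62, SE 0.31). MRPL23 followed the same course, from 13.2 to 7.06 without R and from 16.0 to 15.9 with R. MRPL14 (uL14m) had 28.6 and 16.9 without R, and 26.02 and 26.9 with R. MRPL33, MRPS36, MRPL9, MRPL51 and MRPL11 had log2 fold changes for T between -0.60 and -0.43. In the opposite direction, MRPL32 (bL32m, a target of the m-AAA protease during maturation in yeast and mouse) had 7.42 in Control and 12.7 in T, and 7.88 in R and 6.83 in TR. MRPS10 (uS10m) had 30.2 and 46.2, and 39.0 and 34.1.

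The positions of the genes were compared with those of 16089 protein-coding genes as a description, without a test. The start of 25 of the 78 (32.1%) lay within 1000 bases of the start of a protein-coding gene on the other strand, against 14.7% of all. Overlap with a gene on the opposite strand was found for 33 (42.3%, against 46.1% of all) and with a gene on the same strand for 20 (25.6% against 25.6%). For 6 of these 20 genes the overlapping gene had at least 100 counts in a library. These were MRPL28, MRPL38, MRPL46, MRPL53, MRPS6 and MRPS17, whose values are uncertain for that reason. The close starts formed 24 pairs, and for R the edgeR log2 fold changes had the same sign in 11 and opposite signs in 13. The neighbours named here were chosen after their values were seen.

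MRPL36 and NDUFS6, a subunit of respiratory complex I, start 41 bases apart. NDUFS6 had 28.3, 14.2 and 19.3 FPKM without R and 40.1, 34.2 and 28.7 with R, and a log2 fold change of 0.97 (SE 0.27) beside 1.07 for MRPL36. MRPL49 (mL49) and FAU, which encodes a cytosolic ribosomal protein joined to a ubiquitin-like protein, start 30 bases apart and had 0.58 and 0.69. MRPS11 (uS11m) and MRPL46 (mL46) are both of the 78, start 64 bases apart and had 0.60 (SE 0.28) and -0.30 (SE 0.28). MRPL47 and NDUFB5, another complex I subunit, start 50 bases apart and had -0.50 and 0.35. MRPL43 and TWNK, the helicase of mitochondrial DNA replication, start 148 bases apart and had 0.89 and -0.61. TWNK had 9.505, 12.5 and 10.8 FPKM without R and 3.31, 5.72 and 12.8 with R. MRPS12 and SARS2, the mitochondrial seryl-tRNA synthetase, had 0.58 and -0.39. None of these differences between neighbours was tested.

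**Figure D5:**
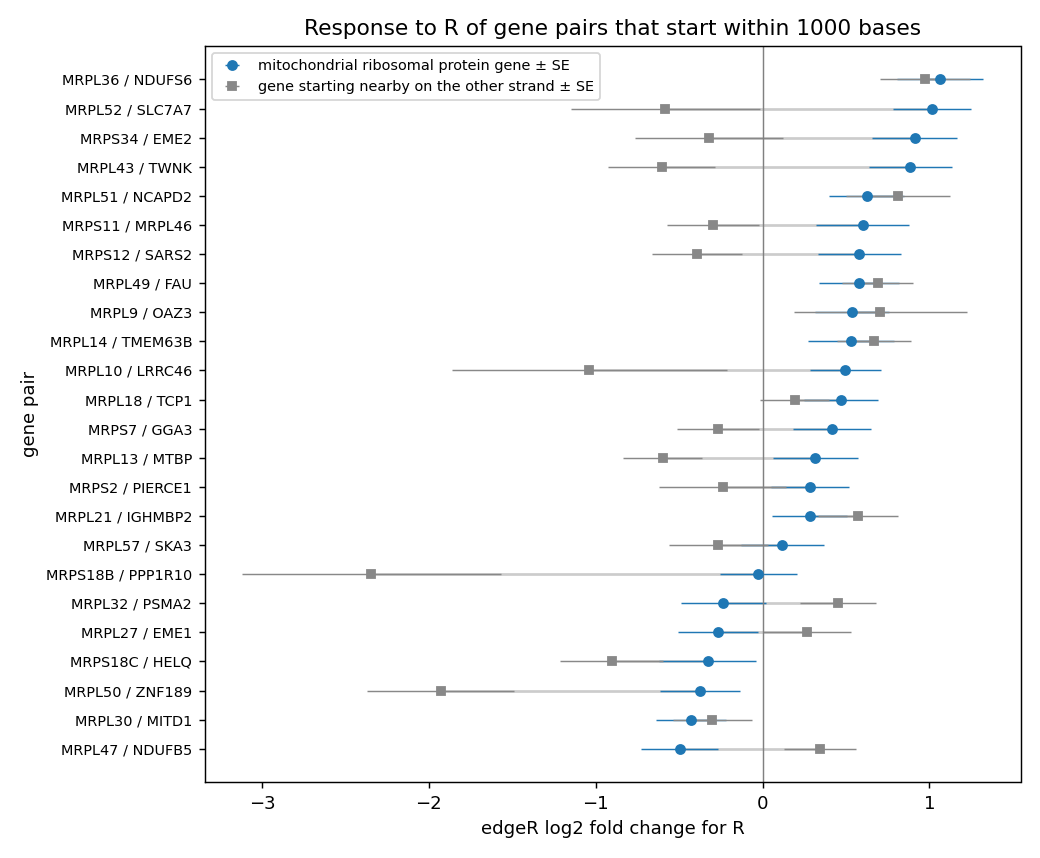
Log2 fold change for R from edgeR, with its SE, for 24 pairs of a mitochondrial ribosomal protein gene (blue; MRPS11 in the pair with MRPL46) and the gene that starts within 1000 bases on the other strand (grey). The signs were the same in 11 pairs and opposite in 13.

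Other genes of mitochondrial translation were set beside the family as lists, against a median log2 fold change for R of -0.05 over all genes. Of 5 mitoribosomal proteins with other names 0 were called in edgeR, with a median log2 fold change of 0.55. GADD45GIP1 (mL64) had 0.98, AURKAIP1 (mS38) 0.85 and PTCD3 (mS39) -0.38. At an unadjusted p under 0.05 in edgeR, 2 of these 5 were higher and 0 lower, against 13.2% and 15.5% of all genes. DESeq2 called 2 higher, against 9.43% of all. Of 28 genes for assembly of the mitoribosome and modification of its rRNA, edgeR called 0 higher and 1 lower, against 1.59% and 1.9% of all genes. DESeq2 called 1 higher and 6 lower, against 9.43% and 9.8% of all. The median log2 fold change of the 28 was -0.24, and 12 were positive. The gene called by edgeR was FASTKD2, an RNA-binding protein of the mitochondrial RNA granules, with 5.64, 5.96 and 5.88 FPKM without R and 1.98, 1.92 and 3.36 with R (-1.12, SE 0.23, edgeR adjusted p = 0.0451). Leaving out Control, T, R or TR ended that call, with adjusted p between 0.108 and 0.254. It also ended with no filter on low counts (adjusted p = 0.208) and with the GC and length offset, where the log2 fold change was -0.68 (adjusted p = 0.0982). With the source-name line as a term, which takes R from GR against G alone, the call ended too, at a log2 fold change of -0.75. DESeq2 called FASTKD2 lower (-1.10, adjusted p = 0.00057). TRMT61B, which methylates mitochondrial rRNA and tRNA, had -1.41 (SE 0.34, edgeR adjusted p = 0.0549). The helicase DDX28 had -1.65 (SE 0.59, edgeR adjusted p = 0.116). Its FPKM was 6.99, 7.15 and 5.91 in Control, T and G, and 0.596, 1.69 and 6.08 in R, TR and GR. DDX28 was thus not lower in GR than in G. NGRN and MPV17L2, both needed for a working mitoribosome, had 0.62 and 0.57. Of 18 translation factors 0 were called in edgeR, against 3.49% of all genes, with a median of -0.13. At an unadjusted p under 0.05, 1 was higher and 3 lower, against 13.2% and 15.5% of all. DESeq2 called 1 higher and 1 lower, against 9.43% and 9.8% of all. The elongation factor TUFM had 0.73, and OXA1L, which inserts new proteins into the inner membrane, 0.33. MTRES1, a rescue factor for stalled mitoribosomes, had -0.88, and GUF1, a GTPase related to elongation factors, had -0.82.

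Of the 15 mRNAs and rRNAs of mitochondrial DNA, 14 fell with R in edgeR, against 1.9% of all genes called lower, with a median log2 fold change of -4.51. Of the rRNAs of the mitochondrial ribosome, MT-RNR2 of the large subunit fell by 2.01 (SE 0.19, edgeR adjusted p = 0.00235). MT-RNR1 of the small subunit had 0.45 (SE 0.20, adjusted p = 0.173) and was not called. The number called lower was 14 without each library in turn as well, but 11 with no filter on low counts, where the adjusted p of MT-RNR2 was 0.208. Of 12 regulators known to act at nuclear mitochondrial genes 0 were called in edgeR, against 3.49% of all genes. At an unadjusted p under 0.05, 1 was higher and 3 lower, against 13.2% and 15.5% of all. DESeq2 called 1 higher and 1 lower, against 9.43% and 9.8% of all. MYC had 0.74, POLRMT, the mitochondrial RNA polymerase, 0.40, the coactivator PPARGC1B -0.75, and GABPB2, a partner of GABPA, -1.21. Of 85 cytosolic ribosomal protein genes 80 had a positive log2 fold change for R, against 9213 of all 19447 genes. At an unadjusted p under 0.05 in edgeR, 35 were higher and 2 lower, against 13.2% and 15.5% of all genes. DESeq2 called 15 higher and 0 lower, against 9.43% and 9.8% of all. The adjusted test in edgeR called 1 higher and 0 lower, against 1.59% and 1.9% of all. That gene was RPS15 (0.95, SE 0.21, edgeR adjusted p = 0.0494), whose adjusted p lay between 0.0505 and 0.253 without Control, T, G, R or TR. Its call also ended with no filter (adjusted p = 0.208) and with the GC and length offset, where the log2 fold change was 0.47 (adjusted p = 0.122). With the line term, which takes R from GR against G alone, the call ended too, at a log2 fold change of 0.73. DESeq2 called RPS15 higher (0.98, adjusted p = 0.00099). The median over the 85 was 0.44 for R and -0.58 for G, beside 0.28 and -0.45 for the 78 mitochondrial ribosomal protein genes. For G, 37 of the 85 were lower at an unadjusted p under 0.05 in edgeR, against 4.55% of all genes. The adjusted test in edgeR called 0 of the 85 for G, against 0.0309% of all. DESeq2 called 2 of them lower, against 0.504% of all.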

How the data were processed

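RNA of 6 libraries was measured, 1 per group, with groups taken from the titles. The authors' deposited table holds a whole-number read count and an FPKM per gene and library, per the file headers, both used as deposited. Tools listed without roles, per the submitters' processing notes, are StringTie 2.1.6, HISAT2 2.2.1, cutadapt 1.9, edgeR and DESeq2. What build and annotation were used, and how overlapping genes were treated, was not given in the sources used here. No column was left unused (0). The 78 genes and all lists were chosen with earlier results of these data known.

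Log2 ratios of FPKM + 1 were taken over 13259 genes reaching an FPKM of 1. The counts of 19447 genes (filterByExpr by presence of R) were fitted with edgeR 4.0.16 in R 4.3.3 (TMM, quasi-likelihood test, oligo and R as additive terms) and, as an alternative, DESeq2 1.42.0. The SE of an edgeR log2 fold change is its size divided by the root of the F statistic. The step was tried on simulated counts in which R alone changed genes, at a lower spread than that fitted here. The simulation held no effect of T or G, so it cannot tell whether the additive form suits these data. GC content and length came from GENCODE v29 transcripts for 93.0% of the genes, and their trends from mgcv 1.9.3.

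Wilson intervals (95%) cover counting error only, since no molecular identifiers were used. The lowest count of the 78 genes in a library was 264. No 2 libraries were alike within sampling noise (lowest chi-square per degree of freedom 93.1, R and TR).

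Genes were chosen for naming by fold change for R, T and G. These were the 8 highest and 8 lowest among genes reaching an FPKM of 5, and called genes. Also chosen were the 5 highest and 5 lowest mean levels and a list of genes by role. Of each other list, the called genes and the 2 highest and 2 lowest for R were chosen. The text does not describe all of them. Of the highest for T only MRPL32 and MRPS10 are described for T, and of the highest for G none for G. MRPL42, MRPL57, RPL7L1, RPL22L1, RPS26 and the single mRNAs of mitochondrial DNA are not described. MRPS6, MRPS11, MRPL28, MRPL38, MRPL49, MT-RNR1, MT-RNR2, CCDC142, NIPSNAP2 and the neighbouring genes were named after their values were seen. Alternatives were other scaling, filters, pseudocount and fold threshold, leaving out libraries, the source-name line as a term, a GC and length offset, and DESeq2.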

Additional observations from a re-analysis of the deposited data

Results flagged for a closer look

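The median log2 ratio of the 78 genes for R had opposite signs between backgrounds, at -0.079 without oligo (R against Control), 0.18 with T (TR against T) and 0.13 with G (GR against G). After rescaling of FPKM by the median ratio they were 0.030, 0.26 and 0.082, so the signs no longer differed. The medians for T were -0.22 without R (T against Control) and 0.046 with R (TR against R), and the latter was -0.012 from TMM-scaled counts. Each pair has 1 library per side, and these differences between backgrounds were not tested.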

How the results depend on the processing

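The number of the 78 genes called for R, 1 in edgeR, was 2 with median-ratio size factors (MRPL53 and MRPL52), 18 with DESeq2, and 0 with the mitochondrially encoded genes left out of the scaling, with no filter on low counts, with the source-name line as a term, with the GC and length offset, and without each library in turn (0 to 0). The number of all genes called for R ran from 24 with no filter to 3740 with DESeq2, beside 679. For G the number was 0 in edgeR under every alternative run and 1 with DESeq2, and for T it was 0 under all. The mean of the median ratios, 0.08 for R, was 0.28 from TMM-scaled counts and between 0.03 and 0.16 without 1 pair. That for G, -0.16, was -0.44 from TMM-scaled counts and between -0.27 and -0.04 without 1 pair, and that for T ran from -0.22 to 0.05 without 1 pair. At 2-fold in place of 1.5-fold, 2 genes differed in R against Control, 8 in TR against T, 0 in GR against G, 0 in T against Control, 0 in TR against R, 1 in G against Control and 2 in GR against R. After rescaling of FPKM by the median ratio, 10 differed in G against Control and 13 in GR against R (3 higher and 10 lower, beside 5 and 2), and with a pseudocount of 0.1, 2 in TR against R. The shares of all genes under these alternatives are not given here. For single genes, MRPS17 turned to 0.025 for R with the line term, which takes R from GR against G alone. MRPL50 turned to 0.33 with the GC offset. The causes were not tested. No paired analysis was possible because the labels give no replicate numbers that could serve as a block, beyond the comparison within each oligo background that the pairs and the additive model already make. Precision is limited by the single library per group rather than by depth, as all 78 genes had 264 or more counts.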
